A study of Mus musculus with 6 samples.

Results

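The genes described here encode the enzymes that make and break down the polyamines, together with the antizyme regulators of the pathway, in mouse muscle with and without Tarsl2. They are the 10 genes Amd1, Amd2, Odc1, Srm, Sms, Smox, Sat1, Paox, Oaz1 and Azin1, found by gene name among the 53084 genes of the deposited count table. The family was chosen by a measured value of the comparison itself, because Amd1 was among the genes with the smallest p in the contrast of the genotypes, so differences of the 10 genes between genotypes are given as a description, with no p-value and with the number past the threshold set only beside that of all genes. All 10 passed the filter on low counts, which 15075 genes of the table passed.

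RNA from the muscle of 3 Tarsl2+/+ mice (583, 584 and 595) and 3 Tarsl2-/- mice (588, 589 and 591) was sequenced, 1 library per mouse, and these groups are labelled WT and KO in the plots. All 6 mice were male, 6 weeks old, of the C57BL/6 strain (C57BL/6J for the zygotes and the crosses of the deleted line) and fed standard chow. In Tarsl2-/- mice a fragment with exon 3 of Tarsl2, which encodes a threonyl-tRNA synthetase, had been removed in the zygote by CRISPR/Cas9 with a pair of guide RNAs, so the deletion was in every tissue and not in muscle alone. The labels do not say which muscle was taken, and the title of mouse 589 begins with another prefix (KOT1) than those of the other Tarsl2-/- mice (KO1), though its genotype label is the same. Library totals were between 16176591 and 20123767 counts.

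Tarsl2 itself was at 456, 605 and 464 counts in the Tarsl2+/+ libraries and at 40, 30 and 37 in the Tarsl2-/- libraries, 14.1-fold lower (log2 fold change -3.81 with a standard error (SE) of 0.16, edgeR quasi-likelihood adjusted p = 6.46e-07, n = 3 per genotype). Of all genes tested, 2.27% had an adjusted p under 0.05, with 1.37% lower and 0.896% higher in Tarsl2-/- muscle. Skeletal muscle markers such as Ckm and Acta1 summed to 43300 CPM or more in every library, where CPM are counts brought to a common library total. The extraction text of the labels appears to speak of retinas, but the 8 retinal markers reached at most 7 counts in any library and 3 of them were at 0 throughout. In bulk muscle RNA, fewer cells of a type and less RNA per cell cannot be told apart.

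Polyamines are small, positively charged molecules that bind nucleic acids and are needed for growth and translation. Ornithine decarboxylase (Odc1) makes putrescine from ornithine. S-adenosylmethionine decarboxylase (Amd1, and its intronless copy Amd2) makes the aminopropyl donor, with which spermidine synthase (Srm) turns putrescine into spermidine and spermine synthase (Sms) turns spermidine into spermine. Spermine oxidase (Smox), spermidine/spermine acetyltransferase (Sat1) and the oxidase of acetylated polyamines (Paox) run the steps backwards. Antizyme (Oaz1), whose translation needs a polyamine-dependent frameshift, binds Odc1 and sends it to the proteasome, and the antizyme inhibitor (Azin1) holds antizyme away from it. In mouse skeletal muscle the polyamine enzymes are known as targets of androgen signalling.

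Amd1 and Amd2 are shown first because their sequences set how their counts can be read. In the GENCODE vM21 annotation of GRCm38, Amd1 (ENSMUSG00000075232) lies on the minus strand at chr10:40287458-40302186 and its longest transcript has 8 exons. Amd2 (ENSMUSG00000063953) lies on the minus strand of the same chromosome at chr10:35708675-35711892 and has 1 exon. Both have a coding sequence of 1002 bases, and these differ at 1 base, G796C, where positions are counted from the A of the start codon, the Amd1 base comes first and the Amd2 base last. The first 90 coding bases, with no difference, and coding bases 709 to 798, which hold the difference in capitals, read as follows.
Amd1, coding bases 1 to 90: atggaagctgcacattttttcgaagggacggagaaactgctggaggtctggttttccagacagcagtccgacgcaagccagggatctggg
Amd2, coding bases 1 to 90: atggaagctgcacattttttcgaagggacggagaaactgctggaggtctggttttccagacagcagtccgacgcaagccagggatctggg
Amd1, coding bases 709 to 798: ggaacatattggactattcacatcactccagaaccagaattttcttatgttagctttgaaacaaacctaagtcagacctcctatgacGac
Amd2, coding bases 709 to 798: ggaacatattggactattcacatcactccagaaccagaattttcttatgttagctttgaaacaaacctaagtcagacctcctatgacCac

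Over their whole transcripts Amd1 and Amd2 were 99.6% identical. Of all stretches of 150 bases in the Amd2 transcript, the length of 1 read, 61.6% occurred unchanged in that of Amd1, and the longest identical run was 930 bases. A read from such a stretch carries by itself nothing that tells Amd1 and Amd2 apart. The reads were paired, so the other read of the same fragment may lie outside the stretch. How the counting assigned such reads is not given in the sources used here. The counts of Amd1 and Amd2 are therefore given apart and summed. The processed pseudogene Amd-ps3 shared 99.9% of its bases and 82.5% of its 150-base stretches with Amd1, and Amd-ps4 shared 99.5% and 40.4%.

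Amd1 was lower in Tarsl2-/- muscle. Its counts were 2561, 2691 and 3849 in the Tarsl2+/+ mice 583, 584 and 595 and 1200, 1021 and 1129 in the Tarsl2-/- mice 588, 589 and 591. Scaled to depth, these were 149.6, 143 and 202 CPM against 66.8, 63.6 and 54.8 CPM. Each Tarsl2-/- library lay below each Tarsl2+/+ library, and within Tarsl2+/+ the library of mouse 595 stood above the other two. The means were 165 ± 32.3 and 61.7 ± 6.22 CPM (SD, n = 3), a level 2.67-fold lower (95% interval 2.17 to 3.28) or a log2 fold change of -1.42 with an SE of 0.14. Without mouse 595 the log2 fold change of Amd1 was -1.25, and over 12 alternatives of tool, scaling, filter and left-out library it was between -1.51 and -1.25. Among the log2 fold changes of all 15075 genes, that of Amd1 was number 78 from the lowest.

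Amd2 was counted at a small fraction of the level of Amd1. Its counts were 60, 48 and 108 in Tarsl2+/+ and 32, 52 and 41 in Tarsl2-/- libraries, or 3.50, 2.55 and 5.66 against 1.78, 3.24 and 1.99 CPM. The genotypes overlapped, since mouse 589 of the Tarsl2-/- group lay above mouse 584 of the Tarsl2+/+ group. The log2 fold change of Amd2 was -0.75 (95% interval -1.46 to -0.05), and without mouse 595 it was -0.38. The highest Tarsl2+/+ library of Amd2 was that of mouse 595, as for Amd1.

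Summed, Amd1 and Amd2 were at 153, 145 and 207 CPM in Tarsl2+/+ and 68.6, 66.9 and 56.8 CPM in Tarsl2-/- muscle. The summed level was 2.63-fold lower, which gave -1.40 (SE 0.14) as log2 fold change beside -1.42 for Amd1 alone, and adding the pseudogene counts gave -1.40 again. Amd2 held 2.29%, 1.75% and 2.73% of the summed counts in Tarsl2+/+ mice 583, 584 and 595. In Tarsl2-/- mice 588, 589 and 591 it held 2.60%, 4.85% and 3.50%. The share of mouse 589 had an exact 95% binomial interval of 3.64% to 6.31% and that of mouse 584 one of 1.29% to 2.32%, and the ranges of the genotypes overlapped at mice 588 and 595. These intervals cover counting error only.

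The pseudogene copies were low in the same libraries as Amd1. Amd-ps3 was at 75, 70 and 90 counts in Tarsl2+/+ and 36, 29 and 21 in Tarsl2-/- libraries. This gave a log2 fold change of -1.42 (SE 0.26), which was between -1.62 and -1.16 with 1 library left out. As for Amd1, it is given as a description with no p-value. Amd-ps3 made up between 1.83% and 2.91% of the counts of Amd1 and Amd-ps3 together in the 6 libraries. Amd-ps4 was at 16, 15 and 14 counts against 3, 8 and 9, with a log2 fold change of -1.15. Amd-ps1 was at 0 or 1 count and Amd-ps5 at 0 counts in every library. Since most of the compared stretches of Amd-ps3 occur unchanged in Amd1, its counts cannot be taken as independent of those of Amd1. The gene model counted for Amd-ps3 was 1496 bases long, and the 1005 bases of its annotated transcript were compared.

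**Figure D1:**
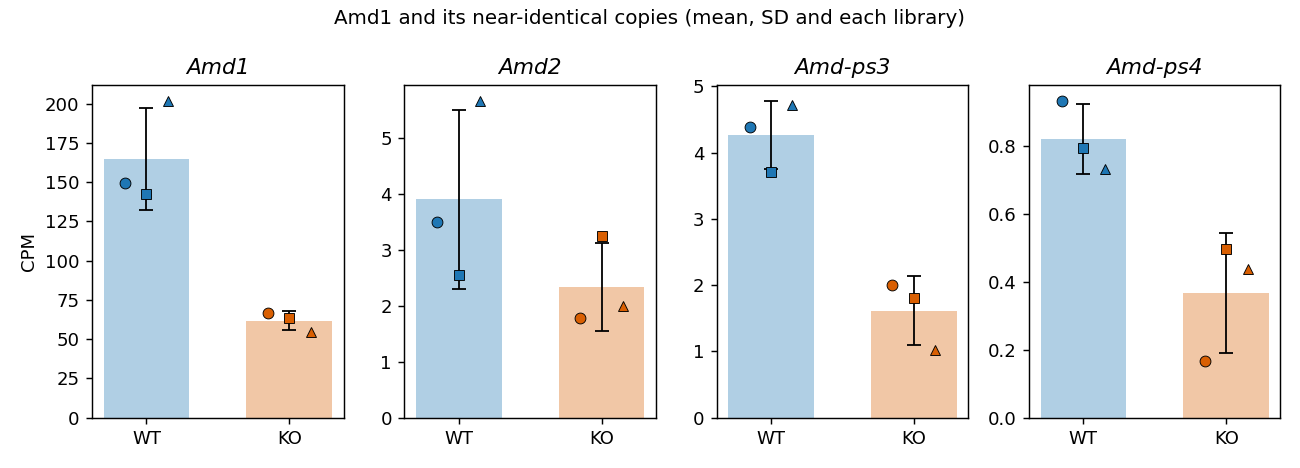
CPM of Amd1, Amd2, Amd-ps3 and Amd-ps4 in the 3 WT (Tarsl2+/+, blue) and 3 KO (Tarsl2-/-, orange) libraries, each panel with its own axis from 0. Bars are means, error bars are SD and symbols are single mice (circle 583 or 588, square 584 or 589, triangle 595 or 591). The genotypes do not overlap for Amd1 (54.8 to 66.8 against 143 to 202 CPM) and do overlap for Amd2.

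Ornithine decarboxylase, which supplies the putrescine for the same reaction as Amd1, was at nearly the same level in all 6 mice. Odc1 (chr12:17544794-17551505, plus strand) was at 113, 119 and 116 CPM in Tarsl2+/+ and 119, 120.4 and 124 CPM in Tarsl2-/- muscle. The groups overlapped, with a log2 fold change of 0.06 whose 95% interval ran from -0.11 to 0.24. The 4 processed pseudogenes that share at least 1 stretch of 150 bases with Odc1 reached at most 22 counts in any library.

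The aminopropyl transferases, which use the product of Amd1, overlapped between the genotypes as well. Srm (chr4:148591503-148594993, plus strand) was at 23.8, 28.6 and 24.3 CPM in Tarsl2+/+ and 26.0, 26.7 and 21.7 CPM in Tarsl2-/- muscle, with a log2 fold change of -0.05 (95% interval -0.29 to 0.20) that took the other sign without mouse 584 or 591. Sms (chrX:157443855-157492287, minus strand) was at 91.6, 70.9 and 87.0 CPM against 83.4, 63.9 and 60.2 CPM. Tarsl2-/- mouse 588 lay between the Tarsl2+/+ values of Sms while mice 589 and 591 lay below them, and the log2 fold change was -0.27 (95% interval -0.56 to 0.03). Sms-ps, a processed pseudogene that shares long stretches with Sms, was counted at 250 to 373 in the 6 libraries and had a log2 fold change of 0.03 (95% interval -0.24 to 0.30).

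The enzymes of breakdown and back-conversion gave small differences of both signs. Smox (chr2:131491496-131525922, plus strand) was between 102 and 129 CPM in Tarsl2+/+ and between 102 and 119 CPM in Tarsl2-/- muscle, with a log2 fold change of -0.08 (95% interval -0.31 to 0.15). Sat1 (chrX:155213132-155216449, minus strand), the acetyltransferase that starts the export or oxidation of polyamines, was at 109, 99.1 and 128 CPM against 96.0, 85.9 and 105 CPM. Its log2 fold change was -0.23 (95% interval -0.47 to 0.02), and Tarsl2-/- mouse 591 lay above Tarsl2+/+ mouse 584. Paox (chr7:140115799-140137224, plus strand) was between 12.4 and 14.0 CPM in Tarsl2+/+ and between 11.6 and 16.1 CPM in Tarsl2-/- muscle, with a log2 fold change of 0.09 (95% interval -0.20 to 0.38) that was -0.02 without mouse 589. The Paox gene overlaps Echs1 on the opposite strand by 678 bases, a gene with up to 3545 counts in a library, and the pseudogene Gm19680 shares long stretches with Paox and reached 43 counts. The methods name a stranded library kit and the labels another one, and the strand setting of the counting is not given in the sources used here, so the value of Paox is uncertain.

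The regulators of Odc1 also overlapped. Oaz1 (chr10:80826656-80829290, plus strand) was the most abundant of the 10, at 1587, 1557 and 1792 CPM in Tarsl2+/+ and 1572, 1478 and 1608 CPM in Tarsl2-/- muscle. Its log2 fold change was -0.08 (95% interval -0.30 to 0.13), while Oaz1-ps, a pseudogene that shares part of its sequence, was at -0.02 (95% interval -0.25 to 0.20). Azin1 (chr15:38487430-38519266, minus strand) was at 82.7, 75.4 and 70.3 CPM against 75.4, 65.5 and 56.6 CPM, a log2 fold change of -0.21 (95% interval -0.45 to 0.03). Tarsl2-/- mouse 588 lay within the Tarsl2+/+ range of Azin1 and the other two lay below it. An annotated antisense gene, Gm49077, overlaps Azin1 by 481 bases and was not analysed here, and the small RNA genes inside Odc1, Oaz1 and Azin1 (Gm22748, Mir1982 and Mir6951) reached at most 1 count in any library.

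**Figure D2:**
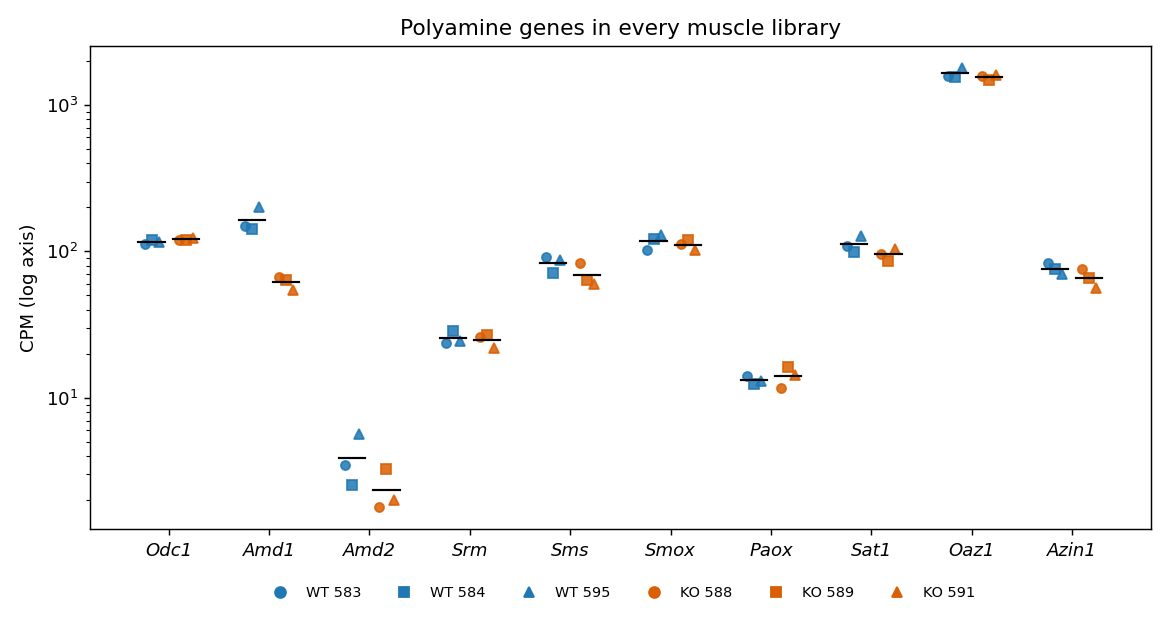
CPM on a log axis of the 10 polyamine genes in each library, in the order synthesis, breakdown and regulators, with WT (Tarsl2+/+) in blue, KO (Tarsl2-/-) in orange and black lines at the group means. Amd1 is the gene whose groups stand apart, and Oaz1, at 1478 CPM or more, lies far above the other 9.

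Of the 10 genes, 1 was lower in Tarsl2-/- muscle with an adjusted p under 0.05, namely Amd1, beside 1.37% of all genes. The genotypes did not overlap for 1 of the 10, again Amd1, beside 24.6% of all genes. As the contrast led to the choice of the family, nothing is read from these counts. In 8 of the 10 the log2 fold change was below 0, with a median of -0.15, and for the 8 genes besides Amd1 and Amd2 it ran from -0.27 to 0.09 with a median of -0.08. Over all genes tested the median was 0.00 and 49.5% were below 0.

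**Figure D3:**
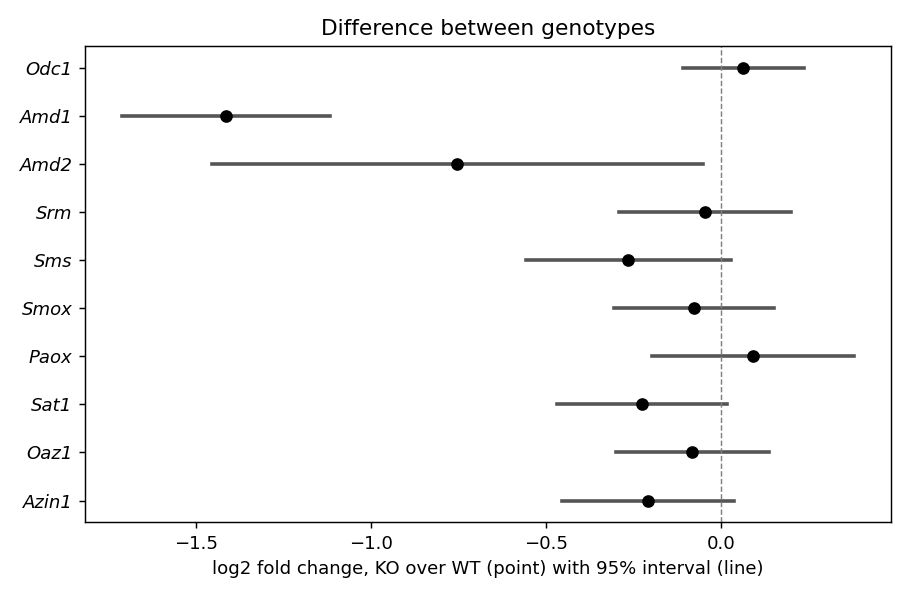
Log2 fold change of each polyamine gene, KO (Tarsl2-/-) over WT (Tarsl2+/+), as a point with its 95% interval as a line (3 libraries per genotype). The line of Amd1 lies near -1.4, that of Amd2 is the widest, and the points of the other 8 genes lie between -0.27 and 0.09. The intervals are not adjusted for the number of genes tested, and nothing is read from which of them cross 0.

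Levels were compared between genes in CPM per kilobase of exon. In Tarsl2+/+ muscle Oaz1 was highest at 643 ± 50.0 (SD, n = 3), followed by Amd1 at 46.5 ± 9.13, Sat1 at 40.3 ± 5.25, Odc1 at 34.1 ± 0.934 and Smox at 30.1 ± 3.59. Below these came Srm at 16.0 ± 1.66, Sms at 13.8 ± 1.81, Azin1 at 12.2 ± 0.998, Paox at 2.68 ± 0.164 and Amd2 at 1.21 ± 0.496. The ranges of 3 libraries overlapped between the neighbours Amd1 and Sat1, Srm and Sms, and Sms and Azin1, so their order is not settled. In Tarsl2-/- muscle Amd1 was at 17.4 ± 1.76, below Odc1 at 35.6 ± 0.749, Sat1 at 34.4 ± 3.36 and Smox at 28.6 ± 2.11, and its range overlapped that of Srm at 15.5 ± 1.67. With the length of the longest transcript in place of all exons, the Tarsl2+/+ order put Sat1 at 82.7, Odc1 at 52.6, Amd1 at 51.4 and Smox at 51.1.

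Genes of the surrounding pathways were taken from 4 lists written by function, 48 genes of which 37 passed the filter on low counts. By edgeR's quasi-likelihood test 0 of the 37 had an adjusted p under 0.05 in either direction, beside 2.27% of all genes. An unadjusted p under 0.05 was found for 7 of the 37, a share near the 19.8% of all genes at that level, and the genotypes did not overlap for 7 of the 37, beside 24.6% of all genes. DESeq2 called 2, Adi1 and Gamt, but it also called more of all genes, 719 beside 342 by edgeR. The limma-voom fit called 0 of the 37, beside 318 of all genes. The median log2 fold change of the 37 genes was 0.02. The 11 genes not tested were at 11 counts or fewer in every library, Arg2, the mitochondrial arginase, among them at 0 to 3 counts.

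The methionine cycle makes S-adenosylmethionine, the substrate of Amd1, and methylthioadenosine salvage returns its by-product to methionine. None of the 13 tested genes of this list passed the test, and 4 had an unadjusted p under 0.05, beside 19.8% of all genes. The median log2 fold change of the 13 was 0.02. Mat2a, the S-adenosylmethionine synthetase of muscle, was at 140.1 ± 6.00 and 142 ± 16.1 CPM (SD, n = 3), a log2 fold change of 0.02 (95% interval -0.20 to 0.23). Mtap, which cleaves methylthioadenosine, was at -0.04 (95% interval -0.30 to 0.22) on the same scale. The smallest p of the list was that of Adi1, a dioxygenase late in the salvage, at 43.4, 44.1 and 40.6 CPM in Tarsl2+/+ and 35.9, 32.8 and 31.8 CPM in Tarsl2-/- muscle (log2 fold change -0.35, edgeR adjusted p = 0.0628). Ahcy, which hydrolyses S-adenosylhomocysteine, was at 17.1, 24.0 and 22.9 CPM against 26.0, 28.0 and 31.1 CPM (log2 fold change 0.41, edgeR adjusted p = 0.117). The groups did not overlap for 4 of the 13 genes, beside 24.6% of all genes. Of these 4, Adi1 was lower and Ahcy, Ahcyl1 and Gnmt were higher in Tarsl2-/- muscle. Gnmt, a glycine methyltransferase named after its values were seen, was at 6, 13 and 9 counts against 22, 18 and 25 (log2 fold change 1.22, edgeR adjusted p = 0.0914).

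Of the 10 tested genes of ornithine and arginine supply none passed the test, and 2 had an unadjusted p under 0.05, beside 19.8% of all genes. The median log2 fold change of the 10 was -0.10. Oat, which links ornithine to glutamate, was at 196 ± 25.1 and 183 ± 26.6 CPM (SD, n = 3), a log2 fold change of -0.10 (95% interval -0.38 to 0.17). The arginase Arg1 was at 2 to 25 counts, with a log2 fold change of 0.83 (95% interval -0.33 to 1.98) that was 0.34 without mouse 584 and 1.35 without mouse 595, and the arginine carrier Slc7a1 was at 0.18 (95% interval -0.28 to 0.65). Gamt, the S-adenosylmethionine-dependent methyltransferase of creatine synthesis, had the smallest p, at 62.1, 60.8 and 50.7 CPM in Tarsl2+/+ and 44.3, 35.9 and 44.5 CPM in Tarsl2-/- muscle (log2 fold change -0.48, edgeR adjusted p = 0.0528). Its groups did not overlap.

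For polyamine transport, 7 genes were tested, none passed and 0 had an unadjusted p under 0.05 in edgeR, beside 19.8% of all genes. DESeq2 and limma-voom also called none of the 7. Atp13a3, a polyamine-transporting ATPase, was at 28.4 ± 2.81 and 31.8 ± 2.06 CPM (SD, n = 3), a log2 fold change of 0.16 (95% interval -0.06 to 0.38). Slc3a2, the heavy chain of amino acid exchangers also linked to polyamine export, was at 0.03 (95% interval -0.31 to 0.37).

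Spermidine is also the substrate for hypusine, the modified lysine of the translation factor Eif5a that Dhps and Dohh make. In the list of these and the other antizyme and acetyltransferase genes, none of 7 tested genes passed. An unadjusted p under 0.05 was found for 1 of the 7, beside 19.8% of all genes. Eif5a was at 421 ± 31.9 and 444 ± 3.79 CPM (SD, n = 3), a log2 fold change of 0.08 (95% interval -0.12 to 0.27), with Dhps at -0.02 (95% interval -0.22 to 0.17) and Dohh at 0.06 (95% interval -0.17 to 0.29). The second antizyme Oaz2 was at 0.13 (95% interval -0.07 to 0.34) and the second antizyme inhibitor Azin2 at 0.12 (95% interval -0.20 to 0.44). Sat2, a relative of Sat1, was at 7.18, 6.68 and 8.23 CPM in Tarsl2+/+ and 6.52, 4.92 and 5.39 CPM in Tarsl2-/- muscle, with a log2 fold change of -0.39 (edgeR adjusted p = 0.20).

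**Figure D4:**
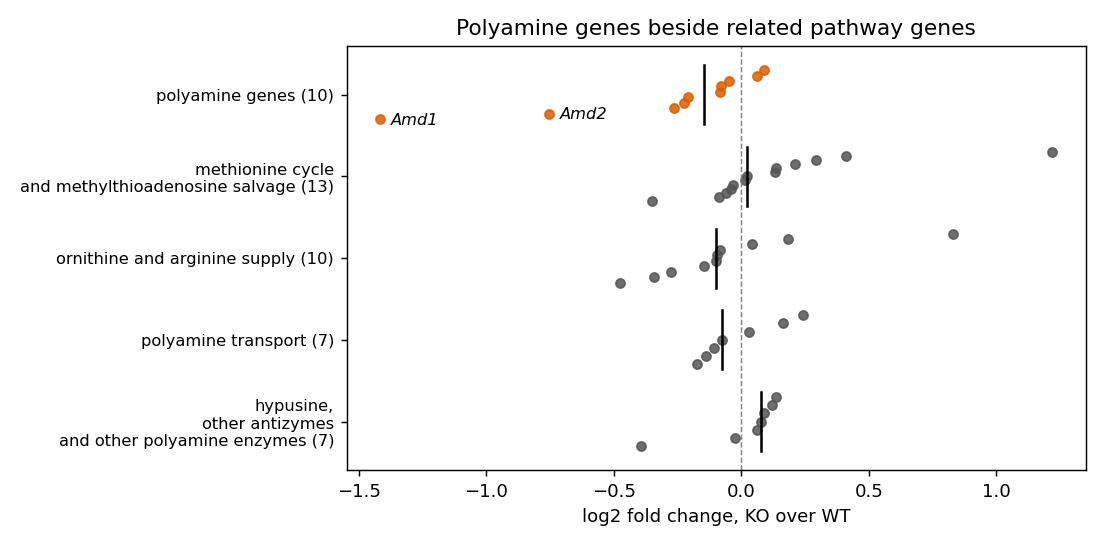
Log2 fold change, KO (Tarsl2-/-) over WT (Tarsl2+/+), of the 10 polyamine genes (orange) and of the tested genes of the 4 surrounding lists (grey), 1 point per gene with the number of genes in brackets and black lines at the medians. Amd1 and Amd2 lie below the points of all 4 lists, whose medians run from -0.10 to 0.08.

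By the root mean square difference of centred log2 CPM over the 6 libraries, the genes with the profile most like that of Amd1 were Gm12224 (0.103), Cd209g (0.132), Gm21188 (0.149), C7 (0.153) and Cd209a (0.168). This measure takes in the difference between genotypes that led to the choice of the family. Genes with another log2 fold change, such as the other 9 polyamine genes, are far from Amd1 by construction. Nothing is read from their absence. Cd209g and Cd209a encode lectins of macrophages and dendritic cells, and C7 encodes a complement component. Cd209g was at 28.6, 27.1 and 42.1 CPM in Tarsl2+/+ and 14.3, 15.4 and 12.7 CPM in Tarsl2-/- muscle, with mouse 595 highest as for Amd1. C7 was at 6.13, 7.32 and 10.9 CPM against 2.95, 2.49 and 2.38 CPM.

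Some marker lists of muscle fibres and of other cells differed between the genotypes beside Amd1, and others did not. The calls stand beside 1.37% of all genes called lower and 0.896% called higher. The genotypes did not overlap for 6 of 7 tested immune cell genes and 2 of 6 erythrocyte genes, beside 24.6% of all genes. The same held for 1 of 5 endothelial, 1 of 5 fibroblast, 2 of 6 skeletal muscle and 3 of 6 tested fast fibre genes. It held for 0 of 7 slow fibre genes, 0 of 6 adipocyte genes and 1 of 7 genes of satellite cells and young myofibres. The 7 tested immune cell markers all had a log2 fold change below 0 and 3 were called lower (Lyz2, Csf1r and Adgre1), and these 7 summed to 934 to 1089 CPM in Tarsl2+/+ and 512 to 657 CPM in Tarsl2-/- muscle. Such sums weigh the most abundant genes most, and Lyz2 alone was at 822 to 964 CPM against 435 to 566 CPM. Of the 7 markers, Cd3e, a T cell marker, was lowest at 3 to 18 counts, and none was at 0 in any library. The 6 erythrocyte genes were below 0 as well, with 4 of them overlapping between genotypes and a smallest adjusted p of 0.052 in edgeR, and summed to 4740 to 10400 CPM against 4160 to 4530 CPM, highest in mouse 595. The 5 endothelial genes were below 0, with 1 called lower (Cdh5), and summed to 93.0 to 108 CPM against 74.3 to 87.0 CPM. The 5 fibroblast genes were also below 0, with a smallest adjusted p of 0.0848 in edgeR, and summed to 8420 to 9950 CPM against 7160 to 8330 CPM. The skeletal muscle list summed to 43300 to 44900 CPM in Tarsl2+/+ and 47800 to 54600 CPM in Tarsl2-/- muscle, with 2 of 6 genes called higher. The fast fibre list summed to 55900 to 59800 CPM against 61900 to 67000 CPM, with 2 of 6 tested genes called higher. The 7 slow fibre genes were above 0 but overlapped between genotypes, with sums of 786 to 1420 CPM against 1090 to 1730 CPM. The 7 genes of satellite cells and young myofibres summed to 72.9 to 83.7 CPM against 66 to 93 CPM, with a median log2 fold change of -0.0043. The 6 adipocyte genes summed to 2660 to 4040 CPM against 3100 to 6840 CPM. Of these 6, 5 were above 0 and 1 below, and all 6 overlapped between genotypes. No gene of these 2 lists was called. The part of any marker list in the difference of Amd1 was not tested.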

How the data were processed

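Per the paper's methods, the authors mapped paired-end reads of poly(A) RNA with HISAT2 to mm10, and they deposited whole-number counts per gene, not normalized. The labels' processing notes name Bowtie 0.12.2 and mm8 instead. The counting tool and strand setting are not given in the sources used here. The kit named differs too, a stranded one in the methods and another in the labels. Genotypes came from the labels. The filterByExpr function of edgeR, with a minimum of 10 counts and a minimum total of 15, chose the genes, whose counts were scaled by TMM and tested across all genes with edgeR 4.0.16 (glmQLFit, glmQLFTest) in R 4.3.3, with Benjamini-Hochberg adjustment and a threshold of 0.05. An SE is the size of the fold change (log2) over the root of its F statistic. CPM are the counts over TMM-scaled totals. Profiles were compared as log2 CPM (prior count 2). The procedure was tested on simulated data, but no result of that is given here and no error rate is taken from it. Amd sequences came from GENCODE vM21 transcripts on GRCm38. Depth was 16176591 to 20123767 counts per library.

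The members and lists were chosen with earlier results of these data known. The genes of the surrounding lists were written down once the counts of the antizymes, Sat2, Azin2 and the Amd pseudogenes had been seen. Named were the 10 genes, in each list those passing the test or else that of smallest p, a set of pathway genes named whatever their values, the 5 profiles nearest to Amd1, and genes overlapping a member. The pseudogenes and single markers were named after their values were seen. Alternatives were DESeq2 1.42.0, limma-voom (limma 3.58.1), RLE and upper quartile scaling, other filters, another gene length, and each library left out. The paper calls the Tarsl2+/+ mice of its muscle fibre measurements littermates, but no source gives the litters of the 6 sequenced mice. Litter could therefore not be taken into account, and the p-values rest on the variation between these 6 mice.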

Additional observations from a re-analysis of the deposited data

How the results depend on the processing

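Of 120 values of the 10 polyamine genes under alternatives, 3 changed sign. With no filter beyond 1 count in any library, Amd2 passed as well, so 2 of the 10 were called. In that setting 1437 of all genes were called in place of 342, and nothing is read from the count of 2. Leaving out 1 library at a time put Srm between -0.0999 and 0.0434, Paox between -0.0180 and 0.209, Amd1 and Amd2 summed between -1.49 and -1.22, and Tarsl2 between -3.91 and -3.69, all as log2 fold changes. Among the surrounding genes 2 were called by DESeq2, 1 with upper quartile scaling, 3 with no filter (Ahcy, Adi1 and Gamt) and 1 where all libraries had to reach 10 counts (Gamt). Mat2a was -0.0077 with upper quartile scaling and -0.0344 to 0.105 with a library left out. Left-out libraries also turned Mtap (-0.129 to 0.0640), Slc3a2 (-0.100 to 0.164), Dhps (-0.0528 to 0.0123), Dohh (-0.0027 to 0.114), Oaz1-ps (-0.134 to 0.0456) and Sms-ps (-0.0708 to 0.151). The number of all genes called, 342 (135 higher, 207 lower), was 90 (20 higher, 70 lower) with a log2 fold change of at least 1, 719 (310 and 409) by DESeq2, 1437 (611 and 826) with no filter, and 81 to 625 (31 to 242 and 50 to 383) with 1 library left out, lowest without mouse 583 and highest without mouse 584. The cause was not tested. No paired analysis was run, because the labels give no pairing of the mice. Amd2, at 32 to 108 counts, was the least deeply counted of the 10 genes.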
